A study of Mus musculus with 6 samples.

Results

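The genes described here are 6 chemokine genes whose proteins attract T cells: Cxcl9, Cxcl10, Cxcl11, Ccl5, Cxcl16 and Cx3cl1. They were taken by name from the deposited count table, and all 6 were found among its 55487 genes. RNA was sequenced from the mouse mammary carcinoma line 4T-1, in 3 libraries labelled wild type and 3 labelled Lyplal1 knockout. The sample descriptions name the wild-type libraries NC and the knockout libraries sg2, and explain neither name. All 6 libraries carry the label of no treatment. The series title ties Lyplal1, a relative of the acyl-protein thioesterases, to removal of palmitate from the DNA sensor cGAS, so the comparison asks which transcripts differ once the gene is disrupted. The labels do not say whether the knockout is a clone or a pool of edited cells, nor whether the libraries of a group come from separate cultures, so p-values measure only the spread between these libraries, which may be technical. In RNA from bulk cells, fewer cells expressing a gene and less RNA per cell cannot be told apart.

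Chemokines are small secreted or membrane-bound proteins that guide cells carrying the matching receptor. Cxcl9, Cxcl10 and Cxcl11 are the ligands of CXCR3, which activated T cells and natural killer cells carry, and are textbook targets of interferon through the STAT and IRF factors. Ccl5 attracts T cells and monocytes. Cxcl16 and Cx3cl1 are made as transmembrane proteins, bind CXCR6 and CX3CR1, and are released from the cell surface by the proteases ADAM10 and ADAM17.

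Among the 6 genes, the CXCR3 ligand genes lie side by side on chromosome 5 and the others lie apart. All positions are on GRCm38, from GENCODE release M21. Cxcl9 is at chr5:92321347-92328079, Cxcl10 at chr5:92346638-92348889 and Cxcl11 at chr5:92359544-92365485, all on the minus strand. Ccl5 is at chr11:83525778-83530518 and Cxcl16 at chr11:70453983-70459984, both on the minus strand, and Cx3cl1 is at chr8:94772009-94782427 on the plus strand. The annotation calls Cxcl11 a polymorphic pseudogene, because its reading frame is broken in the reference strain C57BL/6. The 4T-1 line comes from a BALB/c mouse, and which allele it carries was not examined here.

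Promoter sequence from RefSeq (GRCm38.p6) was found for 3 of the 6 genes, Cxcl9, Cxcl10 and Cx3cl1. These 3 are shown because no promoter sequence was found for the others. They take in the gene with the largest rise, the gene that stayed at a few counts and the gene that fell. Each stretch is given 5′ to 3′ on the gene's own strand and ends just before the start of the GENCODE gene, which for Cxcl10 and Cxcl9 is also the RefSeq start. Capitals mark matches to any of the 4 motifs searched, which are named after the sequences.
Cxcl10, chr5:92348890-92349139, minus strand: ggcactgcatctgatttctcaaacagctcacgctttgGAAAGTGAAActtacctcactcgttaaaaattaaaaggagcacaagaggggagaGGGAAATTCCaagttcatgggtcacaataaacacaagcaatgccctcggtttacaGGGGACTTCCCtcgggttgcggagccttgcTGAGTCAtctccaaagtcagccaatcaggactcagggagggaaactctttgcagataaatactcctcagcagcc
Cxcl9, chr5:92328080-92328329, minus strand: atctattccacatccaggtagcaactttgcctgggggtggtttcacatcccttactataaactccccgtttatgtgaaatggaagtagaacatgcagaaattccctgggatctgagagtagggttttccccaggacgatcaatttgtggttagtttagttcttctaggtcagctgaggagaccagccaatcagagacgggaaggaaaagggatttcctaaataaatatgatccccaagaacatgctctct
Cx3cl1, chr8:94771930-94772008, plus strand: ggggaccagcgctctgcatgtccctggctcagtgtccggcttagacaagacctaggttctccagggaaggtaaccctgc

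The search covered 300 bases per promoter, from 250 before to 50 after the RefSeq start, on both strands. The motifs were a pair of GAAA runs with 2 bases between them, the core of the interferon-stimulated response element that IRF factors bind; TTCNNNGAA, the gamma-activated sequence that STAT dimers bind; the kappaB consensus of NF-kappaB; and TGANTCA, bound by AP-1. The Cxcl10 window held GAAAGTGAAA at positions -213 to -204 from the start, GGGAAATTCC at -159 to -150, and TGAGTCA at -74 to -68. It also held 2 overlapping kappaB matches, at -104 to -95 and -103 to -94, within the capitals GGGGACTTCCC. The Cxcl9 window held only TGACTCA at positions 32 to 38, past the printed stretch, and the Cx3cl1 window held none of the 4. The Cx3cl1 start in RefSeq lies 171 bases inside the GENCODE gene, so its window sits partly within the transcribed part.

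Each of these motifs was uncommon among all promoters but not rare. Of 32851 promoter windows of this length, 3.44% held the paired GAAA motif, 8.3% the TTCNNNGAA motif, 8.46% the kappaB consensus and 7.81% the TGANTCA motif. Of 27 chemokine promoters in the table, 3, 2, 8 and 6 held them in the same order. A match describes letters in the sequence and not a bound factor, and a window without one says nothing about the factor.

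**Figure D1:**
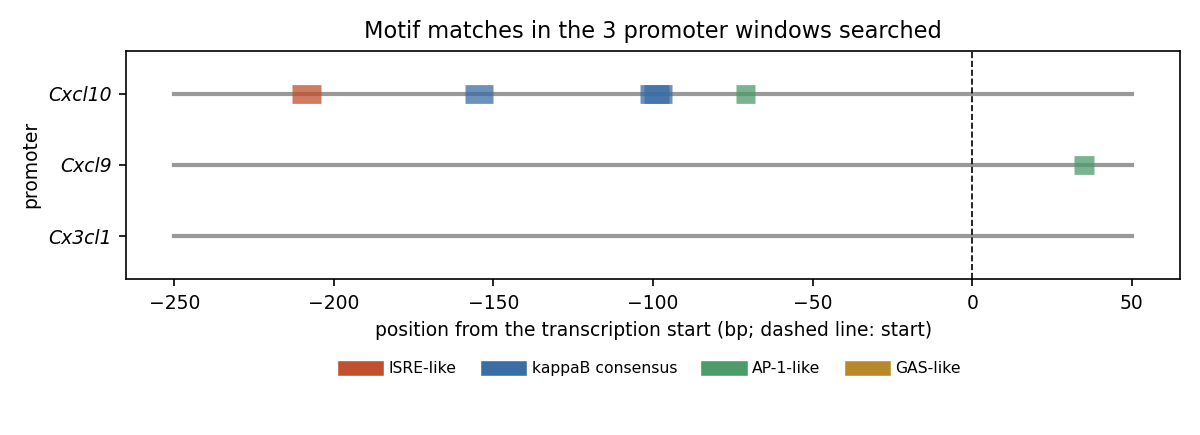
Motif matches along the 3 promoter windows, with the position in bases from the RefSeq transcription start on the horizontal axis and coloured blocks for each match. Cxcl10 held 5 matches, all before the start; Cxcl9 held 1, after the start; Cx3cl1 held none.

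The libraries were alike in depth, with 16731209 to 17108975 counts each, and 13022 genes had enough counts to be tested. Very many genes differed between the groups: edgeR's quasi-likelihood test called 82.3% of them at an adjusted p of 0.05, and 83.1% had groups that did not overlap in CPM, the counts scaled to a common library size. Split by direction, 41.3% of tested genes were called higher in knockout and 40.9% lower. A call or a lack of overlap is therefore common in these data, and the size of a change sets a gene apart more than its call does. The median log2 fold change of all tested genes was -0.0. Lyplal1 counts were 76, 73 and 68 for wild type against 54, 48 and 58 for knockout. Each knockout library was below each wild-type library, but the log2 fold change of -0.28 ± 0.15 (SE) was not called (edgeR adjusted p = 0.0886). Whether the protein is lost cannot be read from these counts.

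Of the 6 chemokines, 5 passed the filter on low counts and 4 of those were higher and 1 lower in knockout. Cxcl9 did not pass it. Of all tested genes 82.3% were called, 41.3% higher and 40.9% lower, so the calls alone do not set the chemokines apart. By fitted log2 fold change, Cxcl10 ranked 18th, Cxcl11 47th, Ccl5 67th and Cxcl16 284th of the 13022 tested genes from the highest, and Cx3cl1 ranked 517th from the lowest. Fold changes below are knockout over wild type unless stated otherwise. For levels, ± is the SD over 3 libraries. For log2 fold changes it is a nominal SE, the change divided by the square root of the test's F statistic. Where a group has few counts, this nominal SE can be smaller than counting error alone and overstates the precision.

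Cxcl10, a CXCR3 ligand, had the largest rise. The wild-type libraries gave 13, 12 and 7 counts, the knockout libraries 11117, 11254 and 12714. Every knockout library lay far above every wild-type library, and the lowest wild-type value was that of replicate 3. Mean CPM went from 0.597 ± 0.178 to 732 ± 58.6, a log2 fold change of 10.24 ± 0.107 or 1211-fold (edgeR adjusted p = 1.93e-20). The wild-type mean rests on few counts, which limits the precision of the fold. An exon of Art3 on the opposite strand overlaps Cxcl10 over 133 bases; Art3 itself had 2 counts in wild type and 5 in knockout, summed over 3 libraries each.

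Cxcl11, also a CXCR3 ligand, followed. Wild-type counts of 6, 5 and 3 stood against knockout counts of 1536, 1839 and 1760, again with no overlap between the groups. Mean CPM was 0.261 ± 0.0847 and 107 ± 9.89, a log2 fold change of 8.64 ± 0.142 or 399-fold (edgeR adjusted p = 2.75e-23). The processed pseudogene Gm2673 on the opposite strand covers 1582 of the 3794 exonic bases annotated for Cxcl11 and had 0 counts in every library. None of the overlap falls in the principal Cxcl11 transcript. The labels do not say how reads in shared exons were counted.

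The third gene of the cluster, Cxcl9, stayed at the edge of detection. No wild-type library held a count of it, and the knockout libraries held 2, 1 and 5. The knockout level was 2.98-fold that of a floor of 3 counts over the wild-type group. The floor covers counting error of the wild-type group only, and the 8 knockout counts were taken as exact. Without the filter Cxcl9 was called (log2 fold change 4.57 ± 1.57, edgeR adjusted p = 0.00942). Of its 8 counts 5 came from knockout replicate 3, the library in which the sums of low-level macrophage and endothelial markers were also highest. A sum over 7 macrophage and dendritic cell markers, leaving out Cd68, Cd14 and Zbtb46, which the wild-type cells express, was 5 to 6 counts in wild type and 36, 54 and 299 in knockout replicates 1, 2 and 3. Lyz2 alone made 28, 45 and 263 of those knockout counts. Of the same list, Csf1r had 3, 2 and 2 counts in wild type and 4, 3 and 14 in knockout. Adgre1, Itgax and Itgam had 0 counts in wild type. In knockout Adgre1 had 0, 0 and 8, Itgax 2, 4 and 9 and Itgam 0, 1 and 3. Aif1 had 2, 4 and 3 counts in wild type and 2, 1 and 2 in knockout, and Flt3 had 0 throughout. A sum over 6 pan-leukocyte and B cell markers was 8, 7 and 9 counts in wild type and 3, 12 and 26 in knockout. Within it, Ptprc had 3, 4 and 7 counts in wild type and 2, 1 and 4 in knockout. Coro1a had 4, 1 and 2 counts in wild type and 1, 8 and 18 in knockout. A sum over 6 endothelial markers was 3 to 4 counts in wild type and 20, 27 and 115 in knockout replicates 1, 2 and 3. The part of such RNA in the Cxcl9 counts was not tested.

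Ccl5, an attractant of T cells and monocytes, gave 22, 25 and 18 counts in the wild-type libraries against 5103, 4961 and 5890 in the knockout libraries. The groups did not overlap. Mean CPM rose from 1.21 ± 0.195 to 333 ± 32.8, a log2 fold change of 8.09 ± 0.122 or 273-fold (edgeR adjusted p = 7.66e-15). T cells are a textbook source of Ccl5, and 9 T and natural killer cell markers other than Lck summed to 0 to 1 counts in wild type and 0, 3 and 5 in knockout, with 5 of the 9 at 0 in every library. Lck itself had 57 to 64 counts in wild type and 74 to 90 in knockout.

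The transmembrane chemokines moved in opposite directions. Cxcl16 gave counts of 326, 346 and 362 for wild type against 2765, 2585 and 2629 for knockout. It was already well expressed in wild type and all knockout libraries were higher, from 19.3 ± 1.08 to 167 ± 5.81 CPM, a log2 fold change of 3.11 ± 0.051 or 8.62-fold (edgeR adjusted p = 6.87e-27). Zmynd15 on the opposite strand shares 552 exonic bases with Cxcl16 and had 69 counts in each group, a log2 fold change of 0.16 that was not called (edgeR adjusted p = 0.603).

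Cx3cl1, also called fractalkine, was the 1 gene of the 6 that fell. Its 1724, 1712 and 1602 wild-type counts compare with 286, 245 and 267 in the knockout libraries, so that each knockout library was far below each wild-type library. Mean CPM went from 94.1 ± 3.48 to 16.7 ± 1.3, a log2 fold change of -2.50 ± 0.0587, which is 5.65-fold higher in wild type (edgeR adjusted p = 1.89e-23). No annotated exon of another gene overlaps Cx3cl1 or Ccl5.

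**Figure D2:**
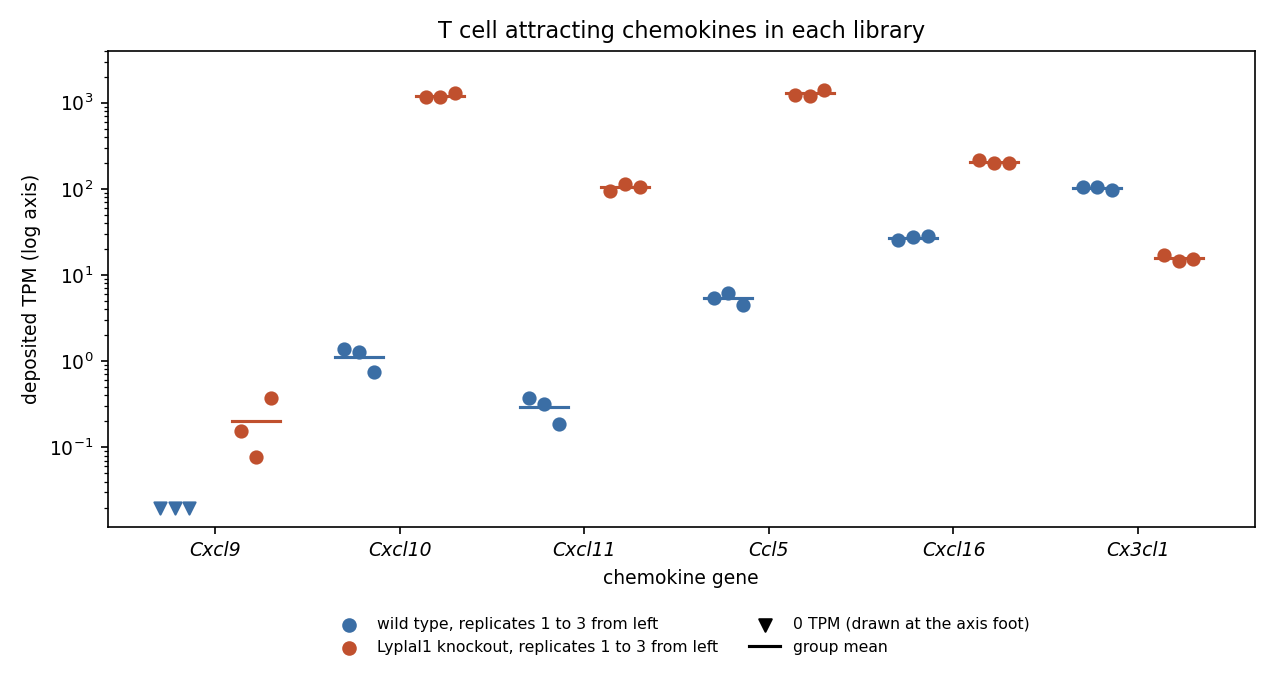
Deposited TPM of the 6 chemokines in each library on a log axis, blue for wild type and red for knockout, with a line at each group mean and a triangle for 0. Knockout libraries lie above wild-type libraries for Cxcl10, Cxcl11, Ccl5 and Cxcl16 and below them for Cx3cl1, and Cxcl9 stays under 1 TPM.

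Levels of different genes were compared per length, in the deposited TPM, which scale each count by gene length and library total. In wild type, Cx3cl1 led with 105, 104 and 97 TPM, followed by Cxcl16 with 25.7, 27.4 and 28.5. Ccl5 came next with 5.46, 6.24 and 4.46 TPM, then Cxcl10 with 1.38, 1.28 and 0.74 and Cxcl11 with 0.377, 0.316 and 0.188. No neighbouring genes in that order overlapped between libraries, and Cxcl9 was at 0.

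In knockout the order was different. Ccl5 reached 1237, 1203 and 1396 TPM and Cxcl10 1149, 1163 and 1285, and these ranges overlapped. Cxcl16 followed at 213, 199 and 198 TPM and Cxcl11 at 94.2, 113 and 106. Cx3cl1, the leading gene in wild type, was at 16.9, 14.5 and 15.5 TPM, above only Cxcl9 at 0.154, 0.0772 and 0.377. By mean TPM over all 55487 genes, Cxcl10 moved from rank 14118 in wild type to rank 69 in knockout and Ccl5 from rank 10653 to rank 55. Cx3cl1 moved the other way, from rank 2158 to rank 7885.

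The order at the top depends on the gene length used. The deposited TPM follow the length of all annotated exons merged, which is 2252 bases for Cxcl10 and 960 for Ccl5, whereas the principal transcripts are 1094 and 532 bases long. On the deposited scale the mean knockout level of Cxcl10 was 0.938 times that of Ccl5, and with principal transcript lengths it was 1.07 times. For Cxcl11 the lengths are 3794 and 1581 bases and for Cxcl16 they are 3021 and 2699. With principal lengths, Cxcl11 was at 67.8 ± 6.25 CPM per kilobase in knockout and Cxcl16 at 61.7 ± 2.15, with overlapping ranges of 60.7 to 72.6 and 59.8 to 64.0. Fold changes of a gene between groups do not depend on this choice.

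Ratios within a library show how the genes moved against each other without a comparison of scaling between libraries. The log2 ratio of Cxcl10 to Ccl5 TPM was -2.59 to -1.99 in wild type and -0.12 to -0.05 in knockout. That of Cxcl10 to its cluster neighbour Cxcl11 was 1.87 to 2.02 and 3.37 to 3.61. The ratio of the transmembrane pair, Cx3cl1 to Cxcl16, turned round, from 1.77 to 2.02 in wild type to -3.78 to -3.65 in knockout. In each of these pairs the groups did not overlap; these are descriptions without a test.

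Seen against the whole chemokine family, the 6 genes made up a small share of chemokine RNA in wild type and most of it in knockout. Over 38 chemokine genes, TPM summed to 749 to 762 in wild type and 3945 to 4175 in knockout. The 6 genes held 17.3% to 18.6% of that sum in wild type, of which Cx3cl1 alone made 12.8% to 13.9%. In knockout they held 67.9% to 71.9%, with 30.5% to 33.4% from Ccl5 and 28.8% to 30.8% from Cxcl10. The neutrophil attractants Cxcl5 and Cxcl1 led in wild type with 50.4% to 51.9% and 26.1% to 28.0%. In knockout Cxcl1 held 19.9% to 23.9% and Cxcl5 7.03% to 8.14%.

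Of 14 other chemokines that attract lymphocytes 2 passed the filter, and both were lower in knockout, as were 40.9% of all tested genes. Ccl20, the CCR6 ligand, gave wild-type counts of 89, 92 and 102 and knockout counts of 5, 5 and 9, without overlap. The wild-type level was 13.1-fold that of knockout (log2 fold change -3.71 ± 0.239, edgeR adjusted p = 8.82e-14). Ccl25, the CCR9 ligand, was lower by less (log2 fold change -0.62 ± 0.117, edgeR adjusted p = 2.69e-05). Below the filter, Ccl4, a CC chemokine like Ccl5, gave 0, 1 and 0 wild-type counts and 8, 17 and 11 knockout counts, a ratio of 40.2 with a 95% counting interval of 6.78 to 1633. Ccl3 went from 0 in all wild-type libraries to 4, 3 and 5 counts. Ccl3 and Ccl4 were chosen for naming after their values were seen.

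Of 18 remaining chemokines 4 were tested, of which 2 were higher, 1 was lower and 1 was not called. The shares over all tested genes were 41.3% higher and 40.9% lower. The monocyte attractant Ccl2 went from 4, 4 and 3 counts to 25, 37 and 48, with no overlap (log2 fold change 3.44 ± 0.363, edgeR adjusted p = 2.13e-09). Cxcl1 had a log2 fold change of 2.34 ± 0.0414 (edgeR adjusted p = 6.35e-26). Cxcl5 changed little, with a log2 fold change of -0.12 ± 0.0369 (edgeR adjusted p = 0.00351).

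**Figure D3:**
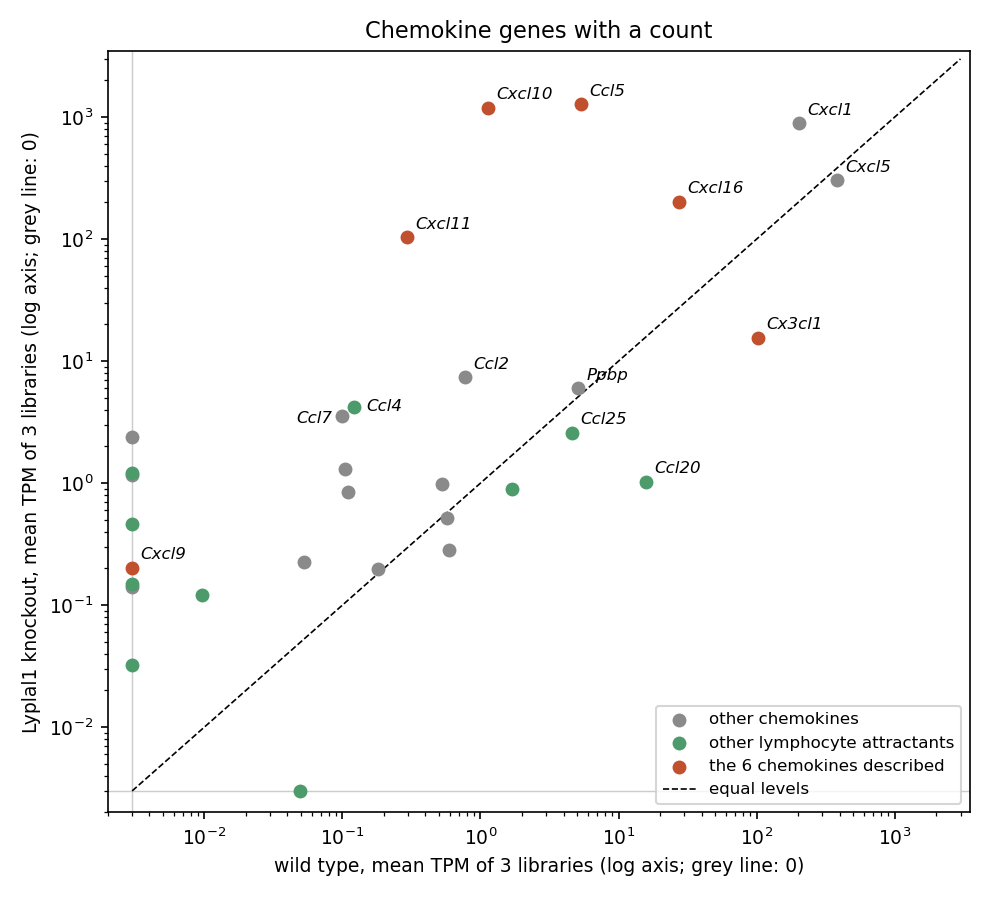
Mean TPM of each chemokine gene with a count, wild type on the horizontal and knockout on the vertical log axis, with grey lines standing for 0 and a dashed line for equal levels. Cxcl10, Ccl5, Cxcl11 and Cxcl16 lie above the dashed line, and Cx3cl1, Ccl20 and Ccl25 lie below it.

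The receptors of the 6 chemokines were expressed little or were lower in knockout. Of 9 receptor genes 2 were tested and both fell, as did 40.9% of all tested genes. Cxcr3, the receptor of Cxcl9, Cxcl10 and Cxcl11, had wild-type counts of 41, 42 and 53 and knockout counts of 2, 4 and 3. Its wild-type level was 13-fold that of knockout cells (a fitted log2 change of -3.71 ± 0.34, edgeR adjusted p = 1.33e-10). Ackr3, an atypical receptor that takes up Cxcl11 and Cxcl12, had wild-type counts of 1782, 1648 and 1683 and knockout counts of 253, 235 and 244. The wild-type level was 6.25-fold that of knockout (log2 fold change -2.64 ± 0.057, edgeR adjusted p = 2.82e-24), and the groups of neither gene overlapped.

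The other 7 receptor genes had at most 11 counts in a library. Cx3cr1, the Cx3cl1 receptor, had 3, 2 and 4 wild-type counts and 11, 10 and 9 knockout counts, without overlap. Cxcr6, the Cxcl16 receptor, had 6, 3 and 0 counts and 7, 2 and 5, with overlap. Ccr1 had 8 counts, all in knockout replicate 3. The atypical receptor Ackr2 had 1, 2 and 0 counts against 0, 3 and 2, Ackr1 had 1 count in all and Ccr3 had 0.

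Of 11 genes that release, trim or hold these chemokines 8 were tested. Of these 2 were higher, 5 were lower and 1 was not called, with a median log2 fold change of -0.13. Among all tested genes 41.3% were higher and 40.9% lower. The sheddase Adam17 was lower by 0.56 on the log2 scale (-0.56 ± 0.04, edgeR adjusted p = 7.71e-13) and Adam10 by less (-0.18 ± 0.0365, edgeR adjusted p = 4.84e-05). Rhbdf2, which brings ADAM17 to the cell surface, was higher (0.58 ± 0.0416, edgeR adjusted p = 1.11e-12). Among the syndecans, heparan sulfate proteins that bind chemokines, Sdc4 fell the most (-1.26 ± 0.0342, edgeR adjusted p = 5.3e-22), Sdc1 was at -0.17 and Sdc2 at 0.36. The 3 genes below the filter, named after their values were seen, had most of their counts in knockout replicate 3. Ctss, a protease, went from 0, 1 and 0 counts to 5, 8 and 48, a ratio of 68.2 with a 95% counting interval of 11.8 to 2737. Timp3, an inhibitor of ADAM17, went from 0, 0 and 1 counts to 3, 5 and 13, and Dpp4, a peptidase that trims chemokines, from 0 in each to 2, 1 and 9. The sums of low-level macrophage and endothelial markers were also highest in that library, and the part of such RNA in these counts was not tested.

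Cytokines that induce these chemokines had few or no counts. Ifnb1, encoding interferon beta, was at 0 in the wild-type libraries and at 16, 16 and 6 counts in knockout. That level was 14.2-fold a floor of 3 counts over the wild-type group, with the knockout counts taken as exact. Ifng, encoding interferon gamma, had 0 counts in all 6 libraries, which allows up to 3 counts over each group. Of the 8 genes of this list that were tested, all receptor chains, 5 were higher, 1 was lower and 2 were not called, with a median log2 fold change of 0.63. The shares over all tested genes were 41.3% higher and 40.9% lower. The interferon receptor chains Ifnar2 (2.19 ± 0.0481, edgeR adjusted p = 4.41e-24) and Ifnar1 (1.03 ± 0.0463, edgeR adjusted p = 5.03e-17) were higher. The interferon gamma receptor chains moved apart, Ifngr2 at 1.13 ± 0.0513 (edgeR adjusted p = 4.34e-17) and Ifngr1 at -0.77 ± 0.0666 (edgeR adjusted p = 4.49e-11).

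Of 17 transcription factors known to drive these genes 10 were higher, 4 were lower and 3 were not called, with a median log2 fold change of 0.35. With 82.3% of all tested genes called, 41.3% higher and 40.9% lower, the number of calls does not set this list apart. Among the IRF genes the rises were large for Irf7, Irf9, Irf5 and Irf1 only. Irf2, named after its values were seen, rose by little (0.35 ± 0.0454, edgeR adjusted p = 7.63e-08). Irf3 was lower (-0.37 ± 0.0546, edgeR adjusted p = 7.95e-07), and so was Irf8, given below. Irf7 went from 47, 34 and 45 counts to 10352, 10728 and 11365, with no overlap (8.16 ± 0.0692, 287-fold, edgeR adjusted p = 1.67e-32). Irf9 was 16-fold higher, Irf5 12.9-fold and Irf1 10.2-fold. Irf1 had 868 to 935 counts in wild type and 7920 to 8770 in knockout, without overlap.

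Of the NF-kappaB subunits, Relb, named after its values were seen, was called higher at 0.85 ± 0.0545 (1.81-fold, edgeR adjusted p = 3.55e-13). Nfkb1 was at -0.01 ± 0.035 (edgeR adjusted p = 0.755). Rela was called higher at 0.09 ± 0.0399 (edgeR adjusted p = 0.0331), but its sign turned to -0.04 with upper-quartile factors and to -0.11 on TPM. The AP-1 genes were lower, Jun at -1.07 ± 0.0388 (edgeR adjusted p = 2.99e-19) and Fos at -0.86 ± 0.26 (edgeR adjusted p = 0.00362). Irf8 was lower too, at -1.46 ± 0.072 (edgeR adjusted p = 2.66e-16).

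Polycomb repressive complex 2 and DNA methyltransferases are known to silence Cxcl9, Cxcl10 and Ccl5 in some tumour cells. Of 8 such genes 1 was higher, 6 were lower and 1 was not called, with a median log2 fold change of -0.35. Among all tested genes 41.3% were higher and 40.9% lower. Uhrf1, which guides Dnmt1 to new DNA, fell the most (-1.26 ± 0.0415, edgeR adjusted p = 3.49e-20). Suz12 was at -0.81 ± 0.0415 (edgeR adjusted p = 7.51e-16), Dnmt1 at -0.57 ± 0.0329 (edgeR adjusted p = 8.87e-15) and Ezh2 at -0.56 ± 0.0376 (edgeR adjusted p = 2.45e-13). Ezh1, the alternative catalytic subunit, was higher at 0.66 ± 0.0455 (edgeR adjusted p = 4.01e-13). Eed and Dnmt3a were lower by little, at -0.15 ± 0.0566 (edgeR adjusted p = 0.0159) and -0.13 ± 0.0485 (edgeR adjusted p = 0.0161). Dnmt3b was not called, at -0.09 ± 0.136 (edgeR adjusted p = 0.528).

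**Figure D4:**
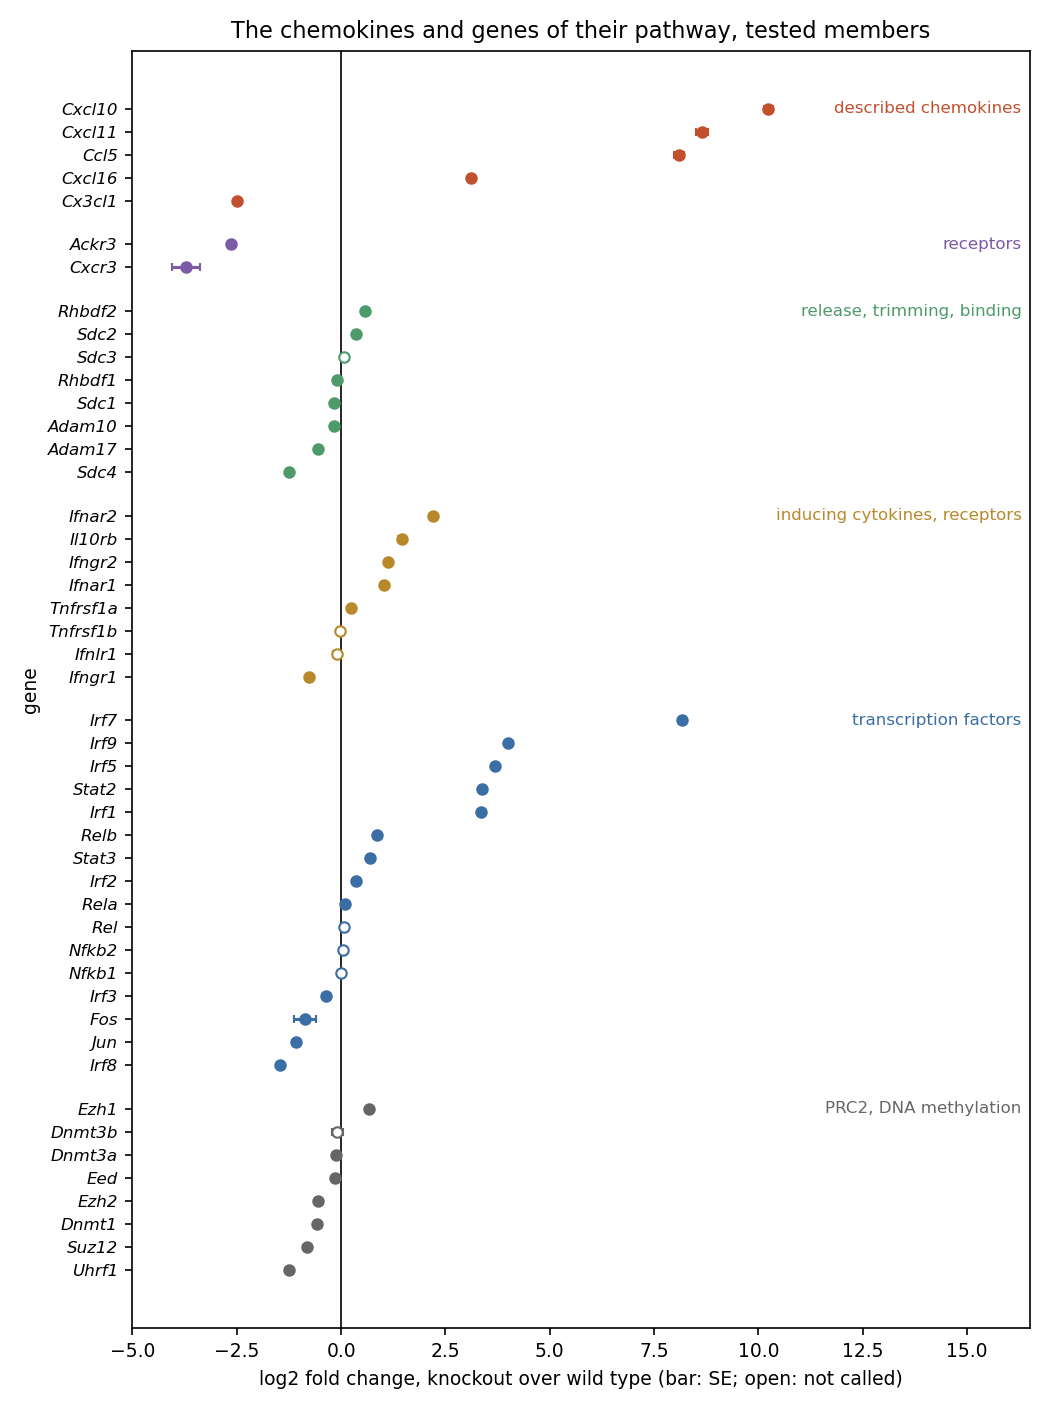
Fitted log2 fold change, knockout over wild type, of the tested genes of the 6 lists that are reported here. Bars show the nominal SE, which can be too short where a group has few counts. Open circles are genes that were not called. Cxcl10, Cxcl11, Ccl5 and Irf7 stand beyond 8, both tested receptors lie below -2.5, and the silencing genes lie between -1.26 and 0.66.

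The genes around the 6 chemokines were followed to see how far the changes reached along the chromosome. Of 116 genes annotated within 250 kb, 46 were tested, of which 26 were higher, 8 were lower and 12 were not called, with a median log2 fold change of 0.32. Among all tested genes 82.3% were called, 41.3% higher and 40.9% lower, with a median of -0.0. A call as such does not set the neighbours apart, but more of them were higher than lower. With the test run on TPM instead, 21 were higher and 15 lower. This lean was not tested. Around the Cxcl9, Cxcl10 and Cxcl11 cluster, 7 neighbours were tested, of which 6 were higher and 1 was lower. Their log2 fold changes ran from -0.09 to 1.69, with a median of 0.88. Art3, which overlaps Cxcl10, had too few counts to be tested, and the nearest tested protein-coding neighbours were Sdad1, a ribosome assembly gene 10.9 kb beyond Cxcl9, at 0.73, and Nup54, a nuclear pore gene 50.1 kb beyond Cxcl11, at 0.27. No tested neighbour changed as much as Cxcl10 or Cxcl11, and Cxcl9, which lies between them and Sdad1, had 8 counts in all.

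The Ccl5 locus differed in that a neighbour rose about as far as the chemokine itself. Heatr9, 3.6 kb from Ccl5 on the same strand and downstream of it, went from 2, 0 and 1 counts to 247, 254 and 246. The groups did not overlap, and the ratio of summed counts was 278, with a 95% counting interval of 94.9 to 1353 (fitted log2 fold change 7.94 ± 0.246, edgeR adjusted p = 9.32e-21). Reads that run on past the end of Ccl5 were not examined, since only counts per gene were used. The plot of neighbours shows the other 7 tested neighbours of Ccl5 closer to 0.

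Around Cxcl16, 20 neighbours were tested, and their log2 fold changes ran from -2.33 to 0.88. Med11, a Mediator subunit gene 0.256 kb from Cxcl16, was at -0.02 and not called (edgeR adjusted p = 0.815). Around Cx3cl1, 11 were tested, from -1.22 to 2.14. The chemokine genes Ccl17 and Ccl22 lie in the same region of chromosome 8; Ccl17 had 6, 2 and 3 counts against 1, 4 and 1, which overlap, and Ccl22 had 1 count in all. At this depth neither could be followed. Both were named after their values were seen.

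**Figure D5:**
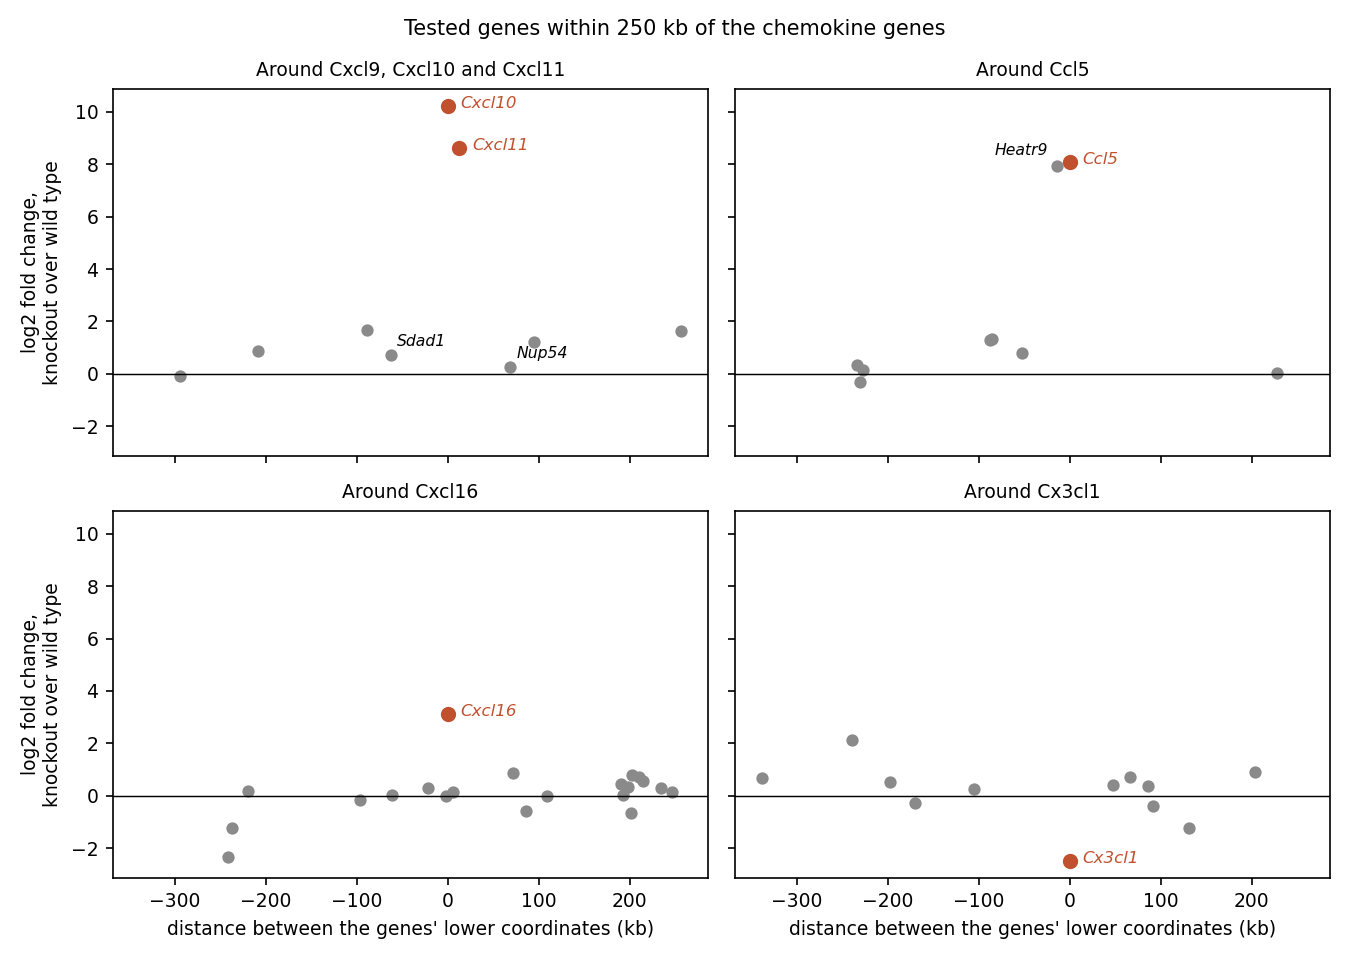
Log2 fold change, knockout over wild type, of tested genes within 250 kb of the chemokine genes, against the distance in kb between the genes' lower coordinates. Grey points are neighbours and red points the chemokines; Heatr9 lies at 7.94 beside Ccl5 at 8.09, and the neighbours of Cxcl16 reach down to -2.33 and those of Cx3cl1 up to 2.14.

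The genes most like each chemokine were found by the distance between log2 CPM values, each centred on its gene's mean, over the 6 libraries. These values hold a prior count of 2, which shrinks the folds of genes with few wild-type counts. Since the groups differ so widely, the distance ranks genes mainly by the shrunken difference between groups, not by the fitted fold change. The search took tested protein-coding genes and passed over provisional Gm and Rik names. Nearest to Cxcl10 were Oas2 (0.428), Trim30a (0.553) and Oasl2 (0.558), known interferon-induced genes. Nearest to Cxcl11 were Gbp2b (0.346), Ccl5 (0.466) and Gbp7 (0.535), and nearest to Ccl5 were Gbp2b (0.395), Rtp4 (0.414) and Gbp7 (0.471). Gbp2b and Gbp7 encode interferon-induced guanylate-binding proteins and belong to a family of close copies, so their counts are less certain.

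The genes nearest to Cxcl16 and Cx3cl1 were others, at smaller distances. Nearest to Cxcl16 were Fth1 (0.132), the ferritin heavy chain, Gla (0.155), a lysosomal galactosidase, and Helz2 (0.164). Nearest to Cx3cl1 were Bscl2 (0.0733), the gene of seipin, mt-Nd1 (0.128), encoded in the mitochondrial genome, and Ctnnal1 (0.128). Fth1 went from 1502 to 12519 mean CPM and mt-Nd1 from 2490 to 470.

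The cells' identity was checked against markers. Epithelial markers, fitting for a carcinoma line, summed to 70764 to 72230 counts in wild type and 48907 to 49244 in knockout, and of 8 tested 1 was higher and 7 were lower. Among all tested genes 41.3% were higher and 40.9% lower. Abundant keratins and Cdh1 carry that sum. Esrp1, an epithelial splicing regulator, went from 616, 653 and 610 counts to 3, 0 and 5, a wild-type level 201-fold that of knockout (log2 fold change -7.65 ± 0.189, edgeR adjusted p = 9.09e-23). Krt19 was at -1.95, Epcam at -1.59 and Cdh1 at -0.16 on the log2 scale. The 1 marker that was higher was Krt7, an abundant keratin, at 0.75 ± 0.0306 (edgeR adjusted p = 3.57e-18). Of 7 fibroblast markers 2 were tested. Pdgfra was higher (1.39 ± 0.043, edgeR adjusted p = 8.36e-21) and Col1a1 lower (-1.4 ± 0.254, edgeR adjusted p = 3.66e-05). Below the filter, Col1a2 had 2, 1 and 3 counts in wild type and 6, 1 and 33 in knockout. Dcn had 1, 2 and 5 against 4, 1 and 16, and Pdgfrb 0 in wild type against 1, 0 and 10. These epithelial and fibroblast markers were named after their values were seen. Of the macrophage markers, Cd68, a lysosomal protein, had 142 to 149 counts in wild type and 7054 to 7657 in knockout, about alike in the 3 knockout libraries, whereas Lyz2 had 28, 45 and 263 there. Of the 4 chemokines that rose, Cxcl10 and Ccl5 had their highest counts in knockout replicate 3, and Cxcl11 and Cxcl16 did not. Without knockout replicate 3 all 5 tested chemokines kept their calls, but with changes this large leaving out 1 library could hardly alter a call. The part of RNA from other cell types in the chemokine counts was not tested.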

How the data were processed

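RNA of 6 libraries was extracted with Trizol and made into DNBseq libraries, per the labels. The values deposited by the authors are raw counts and TPM of 55487 genes. The tools STAR 2.7.8a and featureCounts 2.0.1 and the build GRCm38 are listed in the submitters' processing notes. Not given in the sources used here are the strand setting, the treatment of multiply mapped or overlapping reads and the annotation release, which can move counts of genes that share exons. The 12 files of single libraries repeat the series tables and were not used. Of the gene identifiers, 55227 matched GENCODE M21.

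The counts were tested with edgeR's quasi-likelihood F test (robust, TMM factors, default filterByExpr), two-sided, with Benjamini-Hochberg adjustment over all 13022 tested genes and a threshold of 0.05. The scripts were tested on simulated data. A fold against a group with no count uses a floor of 3 counts over the group; a group with 1 to 3 counts is given by the ratio of scaled summed counts with an exact 95% interval. Both cover counting error only, and the floor covers it only for the group with no count. TPM were used to compare genes. Versions were Python 3.11.15 with SciPy 1.17.1, and R 4.3.3 with DESeq2 1.42.0, limma 3.58.1 and edgeR 4.0.16.

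The chemokines and the lists of related genes were chosen with earlier results of these data known. Named were the 6 chemokines, every gene of a list with up to 9 members that had a count, and otherwise up to 4 called genes per direction with the largest change and at least 1 CPM in the higher group, with 8 factors and cytokines whatever their values. The nearest protein-coding neighbours, genes sharing exons and the 3 most alike genes per tested chemokine were added. Alternatives were other scaling factors, DESeq2, no filter, a filter of 1 CPM in 3 libraries, the replicate block, each library left out in turn, and limma-trend on log2 TPM with a pseudocount of 1 or 0.1. Principal transcript length was added after the data had been seen. Some genes that the rule takes and that enter the counts of their lists are left out by name.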

Additional observations from a re-analysis of the deposited data

How the results depend on the processing

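All 5 tested chemokines kept direction and call under the 14 alternatives to the main test, with log2 fold changes of 9.15 to 10.4 for Cxcl10, 6.34 to 8.85 for Cxcl11, 7.65 to 8.2 for Ccl5, 2.86 to 3.14 for Cxcl16 and -2.7 to -2.43 for Cx3cl1. Without the filter on low counts, genes called higher were 5 of the chemokines described, with Cxcl9 added, 3 receptors, 5 processing genes, 8 inducers, 4 other lymphocyte chemokines and 5 other chemokines. Leaving out 1 library gave 0 to 1 receptors and 0 to 1 other lymphocyte chemokines called higher, 1 receptor without knockout replicate 3 or any wild-type replicate and 1 other lymphocyte chemokine without knockout replicate 1 or any wild-type replicate. On either TPM scale 7 transcription factors, 3 inducers and 15 neighbouring genes were called lower, and with upper-quartile factors 3 inducers. These scalings shift the median of all genes by -0.13 (upper quartile) and by -0.2 and -0.21 (TPM), and 42.8% and 38.5% of calls are then higher, against 50.2%. Rela reversed to -0.04 with upper-quartile factors and -0.11 on both TPM scales, and its call was lost with DESeq2, the stricter filter, and on leaving out any of wild-type replicates 2 and 3 and knockout replicate 3. Nfkb1 was called lower with upper-quartile factors and on TPM, Med11 was called lower and Nup54 lost its call on TPM, and Eed and Dnmt3a lost theirs in some settings that left out a library. With principal transcript lengths the Cxcl10 to Ccl5 level ratio was 1.07. The labels do not say whether equal replicate numbers mark libraries made together. Deviations of same-numbered libraries correlated at -0.00742, 0.0416 and 0.0132. No shared replicate effect was seen, which cannot show how the libraries were made. With the replicate number as a block, 5430 genes were called higher and 5368 lower, and 4 chemokines stayed higher and 1 lower. Depth limits the wild-type levels of Cxcl9, Cxcl10, Cxcl11 and Ccl5.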
